A study of Ictalurus punctatus with 24 samples.

Results

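The intestine of channel catfish (Ictalurus punctatus) fed a diet with 50 g frass per kg (low frass) was compared with that of fish fed the same practical diet without frass (control, 0 g per kg) after 10 weeks, in 8 of the 24 libraries of the series, chosen by tissue and diet label, with 4 libraries a diet. Frass is the residue of black soldier fly larvae culture, made of larval waste, shed exoskeleton and leftover feed. In the low-frass diet it stood in for a share of the soybean meal, wheat shorts and corn meal so that protein stayed equal, and all fish were Marion strain fingerlings fed to satiation. Each library was made from the pooled intestines of several fish, 3 by the sample labels and 4 by the study's methods, so no value describes a single fish. By the methods each pool came from its own aquarium, with 4 aquaria a diet. The study's question was how frass in the feed affects the expression of growth and immune genes in several tissues, of which the intestine is one. The 12 intestine libraries, which include 4 from fish fed 300 g frass per kg, held 12534783 to 17371695 counts.

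The fish intestine absorbs peptides, sugars and fat mainly in its anterior stretch and takes up bile salts and whole proteins farther back. Its lining also carries an antiviral program, in which interferon acts through STAT transcription factors to switch on effectors such as viperin, and families of intracellular sensors (NLR) and E3 ligases (TRIM) that are large in bony fish. Because neither labels nor methods say which stretch of gut was taken, the transcripts of each library were examined for gut position before the diets were compared.

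The libraries fell into 2 classes by gut stretch, inferred from their transcripts and not given in the labels. Across the 12 intestine libraries the median Pearson r of log2 levels over features was 0.971 within a class and 0.892 between classes. The classes match a clustering of these same levels, so a higher r within a class was built in and is only a description. The summed level of 12 anterior genes, in CPM (counts relative to the library total, scaled by the trimmed mean of M-values), was 66734, 23485 and 30039 CPM in low-frass libraries 1, 2 and 4 and 26574 and 23779 CPM in control libraries 2 and 3. It was 1411 CPM in low-frass library 3 and 999 and 1447 CPM in control libraries 1 and 4. Low frass had 3 anterior-like libraries and 1 posterior-like library, against 2 and 2 in the control, so diet and stretch were partly mixed. The marker vil1, which encodes the brush-border protein villin, was at 852 to 2648 CPM in all 8 libraries, while cdh17 and epcam, which encode epithelial adhesion proteins, did not exceed 0.141 and 0.263 CPM.

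**Figure D1:**
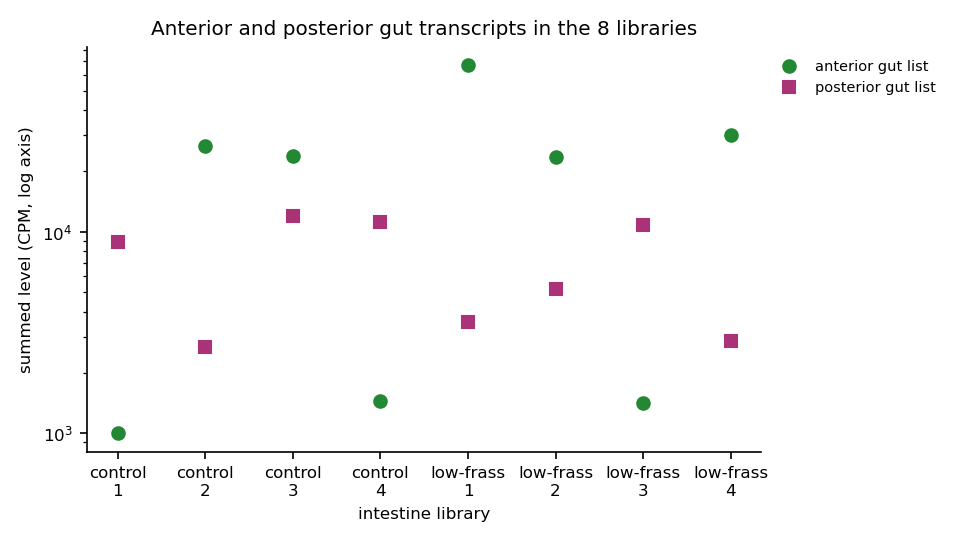
Summed levels of the anterior (circles) and posterior (squares) gut lists in CPM, on a log axis, in the 4 control and 4 low-frass intestine libraries, 1 point a library and list. Control libraries 1 and 4 and low-frass library 3 lie at 999 to 1447 CPM for the anterior list, and the other 5 libraries at 23485 CPM or above.

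The split by stretch was not clean in control library 3. The bile acid transporter slc10a2 was at 788 CPM there, against 18.8 CPM in control library 2 and 8.01 to 12.1 CPM in the anterior-like low-frass libraries. The ileal bile acid-binding protein gene fabp6 reached 7410 CPM in control library 3 and 1846 CPM in low-frass library 2, but 27.8 to 40.6 CPM in the other anterior-like libraries of the 8. Control library 3 thus held anterior transcripts together with both of these posterior ones. In low-frass library 2 fabp6 was raised, but slc10a2 was at 12.1 CPM and amn, also of the posterior list, at 3.17 CPM. That gene was at 2.22 to 6.34 CPM in low-frass libraries 1 and 4 and control library 2, and at 21.9 CPM in control library 3.

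No feature passed the threshold for differential expression between low-frass and control intestine. In the quasi-likelihood F test of edgeR over 10401 features, 0 features (0%) differed more than 2-fold at a Benjamini-Hochberg adjusted p below 0.05, and the smallest adjusted p was 1.0. With gut stretch as a term in the fit the count was again 0 and the smallest adjusted p 1.0. An unadjusted p under 0.05 was reached by 108 features (1.04%), of which 65 were lower (0.625%) and 43 higher (0.413%) with low frass, fewer than the 520.05 that uniform p-values would give. That count was 636 without low-frass library 3, 306 without low-frass library 2 and 251 without control library 2. With stretch as a term, 114 features were lower (1.10%) and 83 higher (0.798%), 197 in all, or 579 without low-frass library 2. Of these, 82 were under 0.05 in both fits, all 82 in the same direction. In 38 features all 4 low-frass libraries lay below all 4 controls (0.365%) and in 38 above them (0.365%), and 32 features had both no overlap and p under 0.05 in both fits. The values below describe levels, and none of the differences passed the adjusted test in either of these fits. Some alternatives did call features. DESeq2, run on the 8 libraries alone, called 3 features, LOC108269832, LOC108261274 and LOC124627791, all lower with low frass, at adjusted p of 7.65e-06, 0.0101 and 3.09e-06. In edgeR with stretch and without a filter on low counts, 115 features were called, 43 higher and 72 lower, among them rsad2, stat1b, ifit8, mxa, hgd, g6pc1a.1, slc10a2 and itih3a.2. Also called were the posterior Hox genes hoxa9b, hoxa10b and hoxc11a, all lower. Called higher were the somatostatin genes sst1.1 and sst2, the islet and duodenal factor gene pdx1, and the liver genes hpxa and ahsg2. The part of gut position and of pancreatic or liver tissue in the calls of this fit was not tested. That fit estimated infinite prior degrees of freedom, against 4.47 with the filter, so the spread of each feature between libraries did not enter its test.

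Genes of the interferon and antiviral program lay on the lower side in both fits. All 16 tested members had a negative log2 fold change, with a median of -0.49 against 0.03 over all features tested, and 5 of the 16 had an unadjusted p under 0.05, all lower (all features: 0.625%). With stretch as a term the 16 were again all negative, with a median of -0.37 and 6 members under 0.05 (all features: 1.10%). A score of gut position was also used in place of the 2 classes. It is the mean log2 level of the anterior gut list minus that of the posterior gut list. With the score 2 of the 16 were positive, as were 3 without low-frass library 3 or control library 2, and 3 with stretch without control library 3. The 5 became 2 without low-frass library 2 or 4 (all lower features under 0.05: 207 of 10648 and 64 of 10671). They became 3 without low-frass library 3 or control library 2 (all lower features: 502 of 10647 and 143 of 10651). With stretch, the 6 became 3 without control library 2 (all lower features: 152 of 10651), where the median was -0.20. The list held 2 genes that the study had picked on these libraries, rsad2 and stat1b, so it is not independent of them. Without those 2 the median was -0.44. Both were among the 5 and among the 6 under 0.05, and the others of the 5 were ifit8, dhx58 and irf9. The list as a whole was chosen with earlier results of these data known. The summed level was 742, 685, 688 and 739 CPM in control libraries 1 to 4 and 511, 455, 695 and 477 CPM in low-frass libraries 1 to 4. Low-frass library 3, the posterior-like one, lay within the control range and the other 3 lay below it. Compared with the posterior-like control libraries 1 and 4 alone, low-frass library 3 was lower than both. In bulk tissue, fewer cells of a type and less RNA per cell cannot be told apart.

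Viperin, the product of rsad2, is an interferon-induced enzyme that blocks virus replication. Its gene (chromosome 9, 12920945 to 12923713 of Coco_2.0) was at 17.2, 46.3, 26.9 and 21.6 CPM in control libraries 1 to 4 and at 10.05, 13.5, 9.39 and 7.94 CPM in low-frass libraries 1 to 4. The groups did not overlap, with a log2 fold change of -1.45 (SE 0.36, unadjusted p = 0.0018, adjusted p = 1.0 in edgeR's quasi-likelihood test). With stretch as a term it was called by DESeq2 (adjusted p = 0.00316) and by edgeR without the filter (adjusted p = 7.59e-06). Low-frass intestine was lower in both stretches, by a log2 difference of -1.74 among anterior-like and -1.0 among posterior-like libraries. Its neighbour cmpk2 (chromosome 9, 12924631 to 12932964), a nucleotide kinase gene that is also interferon-induced, was at 8.84 to 34.6 CPM in the control and 7.0 to 10.7 CPM with low frass. These ranges overlapped, since control libraries 1 and 4 lay within the low-frass range and libraries 2 and 3 above it.

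Upstream of these effectors, stat1b encodes a transcription factor activated by interferon receptors. It was at 25.2, 48.8, 15.7 and 19.4 CPM in control libraries 1 to 4 and 17.1, 6.75, 9.49 and 5.22 CPM in low-frass libraries 1 to 4. Only low-frass library 1 exceeded the lowest control, and the log2 fold change was -1.50 (SE 0.54). Its partner gene irf9 had a log2 fold change of -0.50 (SE 0.22), at 102 to 167 CPM in the control and 67.1 to 105 CPM with low frass. The cytoplasmic RNA sensor regulator dhx58 was at 47.3 to 58.2 CPM in the control and 28.3 to 44 CPM with low frass, without overlap.

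The effector ifit8, of the interferon-induced tetratricopeptide family, was at 9.61, 9.20, 5.40 and 6.79 CPM in control libraries 1 to 4 and 2.96, 1.45, 5.89 and 1.32 CPM in low-frass libraries 1 to 4. The posterior-like low-frass library 3 alone reached the control range, though it lay below the posterior-like control libraries 1 and 4. The dynamin-like antiviral gene mxa was at 1.71 to 16.6 CPM in the control and 1.81 to 5.02 CPM with low frass, and its difference had an unadjusted p of 0.088 in both fits of edgeR. Other members such as irf3, irf7, ifih1 and the immunoproteasome subunits psmb9a and psmb10 had log2 fold changes between -0.21 and -0.14, each with a standard error larger than its size. The high-frass libraries were not part of the comparison. Their summed levels were 895, 709 and 734 CPM in the posterior-like libraries 1 to 3 and 449 CPM in the anterior-like library 4. In each of the 3 diets the anterior-like libraries had lower sums than the posterior-like ones.

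**Figure D2:**
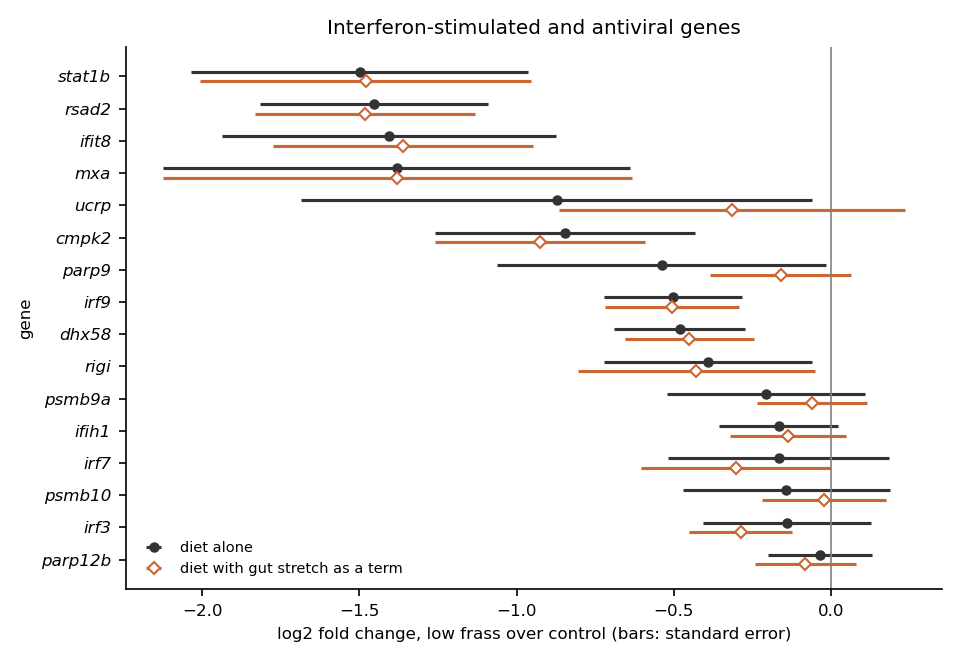
Log2 fold change of low-frass over control intestine for the 16 tested interferon-stimulated and antiviral genes, with diet alone (black) and with gut stretch as a term (orange), bars showing the standard error. All points lie left of 0, from -1.50 for stat1b to -0.03 for parp12b with diet alone.

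Among the lower features were single genes annotated as intracellular sensors or ubiquitin ligases, while the families as a whole were not examined. All of those named here belong to the 29 features that the study listed for this diet, 19 lower and 10 higher. That list was chosen on these same libraries, so the direction of its members is a description. LOC124627791, annotated as an NLRC3-like receptor, had 421, 88, 66 and 129 counts in control libraries 1 to 4 and 3, 19, 6 and 8 counts in low-frass libraries 1 to 4. The groups did not overlap and the log2 fold change was -4.20 (SE 0.93, adjusted p = 1.0 by edgeR). High-frass libraries 1 to 4 were at 16.7, 24.3, 1.58 and 3.71 CPM, against 4.35 to 22.8 CPM in the control.

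The TRIM16 genes LOC108278018 and LOC108277536, both on chromosome 17 of Coco_2.0, lay at 2.86 to 4.24 and 1.05 to 3.04 CPM in the control. With low frass they lay at 0.627 to 1.93 and 0.369 to 0.913 CPM. Neither pair of ranges overlapped, and the log2 fold changes were -1.66 (SE 0.37) and -1.61 (SE 0.41). The E3 ligase gene LOC108265088 (NEURL3) was at 30.7, 8.04, 46.4 and 21.4 CPM in control libraries 1 to 4 and at 7.76, 7.5, 9.94 and 9.96 CPM with low frass. Control library 2 was within the low-frass range. NLRC3-like and TRIM16 genes can have near-identical copies, whose reads may not be assigned to a single gene. Such copies were not looked for here, so the single-gene levels of these genes are uncertain.

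**Figure D3:**
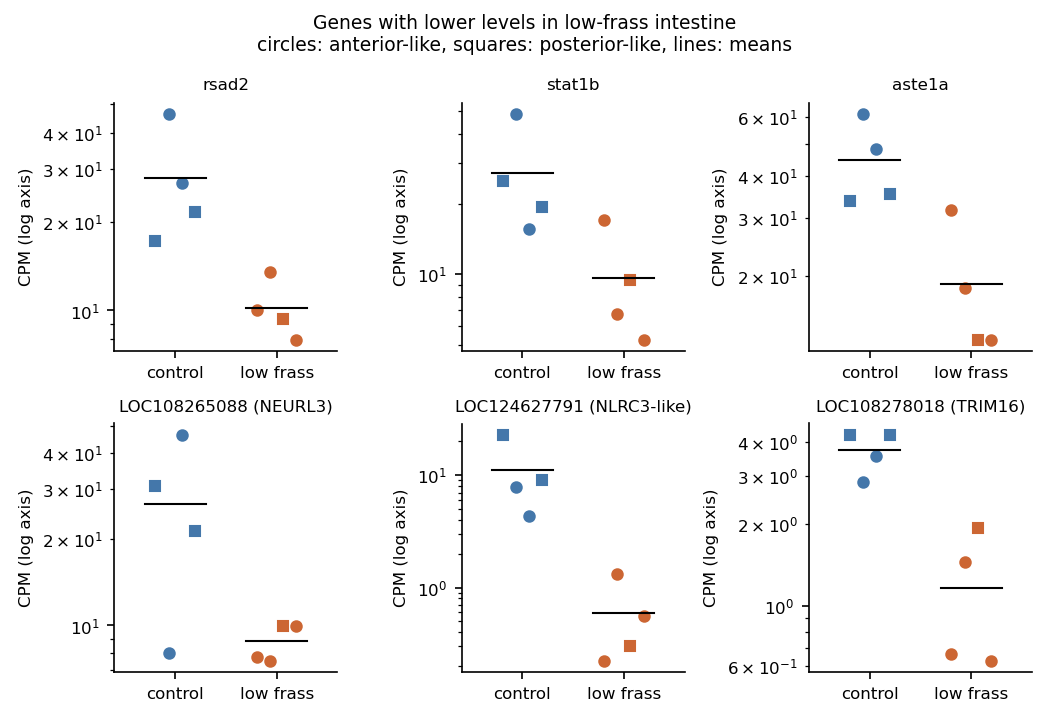
Levels in CPM, on a log axis, of 6 genes in the 4 control (blue) and 4 low-frass (orange) intestine libraries, circles for anterior-like and squares for posterior-like libraries, lines for the means. For rsad2 the low-frass points lie at 7.94 to 13.5 CPM, below every control point.

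LOC108269832, annotated as an up-regulator of cell proliferation-like gene (chromosome 9, 27777858 to 27789386), had 1184, 7, 226 and 40 counts in control libraries 1 to 4 and 3, 5, 4 and 2 in low-frass libraries 1 to 4. The control libraries spread from 0.625 to 64.3 CPM, and the log2 fold change was -6.47 with a standard error of 1.94. LOC108261274, a plexin-C1 gene, had 7, 28, 70 and 193 counts in the control and 2, 2, 9 and 1 with low frass, and the ranges overlapped. The GP2-like gene LOC108273582, a glycoprotein of the gut lining in mammals, had 50, 5, 22 and 59 counts against 11, 13, 8 and 6. The ranges overlapped, and the highest counts were in the posterior-like control libraries 1 and 4. Its log2 difference was -0.19 among anterior-like and -2.10 among posterior-like libraries. The immunoglobulin heavy chain V region-like LOC128629329 had 60, 3, 5 and 8 against 1, 2, 0 and 4. All genes of this paragraph are on the study's list, chosen on these libraries.

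Of the lower features, 4 lay in one region of chromosome 7, between 2142310 and 2349543 of Coco_2.0. They were LOC124628311 and LOC128633000 (CEACAM5-like), LOC108261596 (CD22-like) and LOC128632991 (Fc gamma receptor I), names of the immunoglobulin superfamily of surface receptors. LOC124628311 had 0, 75, 74 and 7 counts in control libraries 1 to 4 and 0, 0, 3 and 1 in low-frass libraries 1 to 4. LOC108261596 had 1, 56, 25 and 1 against 0, 0, 4 and 0, and LOC128633000 had 1, 16, 6 and 0 against 0 in each low-frass library. Most of these counts came from control libraries 2 and 3, and high-frass library 4 held 176, 54 and 11 counts of these 3. All 3 libraries were anterior-like, but the 3 anterior-like low-frass libraries held at most 1 count of any of these 3. LOC128632991 had 23, 34, 12 and 1 counts in the control and 4, 2, 0 and 0 with low frass. The region holds 16 features with a count in the intestine, of which 4 are on the study's list and 3 were abundant enough to be tested.

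Low-count members of the study's list were a putative claudin-24, LOC108270652, with 5, 3, 2 and 6 counts in control libraries and 0, 0, 1 and 0 with low frass, a rhamnose-binding lectin-like gene, LOC108264892, with 8, 1, 9 and 6 against 0, 1, 1 and 0, and a histone H1-like gene, LOC128630393, with 5, 4, 6 and 5 against 1, 0, 1 and 0. The claudin and histone groups did not overlap, and no fold is given at these counts.

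In all, 20 features were lower with low frass without overlap and at an unadjusted p under 0.05 by both fits. The 10 of largest fold change among those with a mean of at least 1 CPM in a group held 3 genes outside the study's list. They were bsnb, which encodes the presynaptic scaffold bassoon (0.697 to 1.17 CPM against 1.27 to 3.91 CPM), the adenylyl cyclase gene adcy2a (0.443 to 0.836 against 1.05 to 2.05 CPM) and the adaptor gene shc1 (1.85 to 2.59 against 3.25 to 7.16 CPM). The gene aste1a, a homolog of the fly gene asteroid and on the study's list, was at 33.6, 61.5, 48.1 and 35.4 CPM in control libraries 1 to 4 and 31.5, 18.5, 12.9 and 12.9 CPM in low-frass libraries 1 to 4. The groups did not overlap, and low-frass library 1 lay just under the lowest control. For sugct, also on the study's list, the transcript in the table was at 3.13 to 4.18 CPM in the control and 1.48 to 1.72 CPM with low frass. With the 5 transcripts of the gene added up the log2 fold change was 0.04.

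Higher levels with low frass were seen in genes of amino acid and sugar metabolism, at low counts. The gene hgd encodes homogentisate dioxygenase, which breaks down tyrosine, and had 3, 7, 6 and 5 counts in control libraries 1 to 4 and 85, 30, 31 and 21 counts in low-frass libraries 1 to 4. The groups did not overlap, and low-frass library 1 was the highest, at 6.28 CPM. The log2 fold change was 2.90 (SE 0.82, adjusted p = 1.0 in edgeR), and 2.59 (SE 0.69) with stretch as a term. Without the filter on low counts and with stretch, edgeR called hgd at an adjusted p of 0.000345. In the gene list of aromatic amino acid breakdown, 6 of 7 tested members had a positive log2 fold change, with a median of 0.50 (0.26 with stretch), and 1 of the 7, hgd itself, had an unadjusted p under 0.05 (all features: 0.413%). hgd is on the study's list, chosen on these libraries. The median was 0.28 without control library 1, and with stretch 0.02 without low-frass library 3, where 4 of 7 were positive. kynu, of tryptophan breakdown, was at 76.9 to 132 CPM in the control and 63.6 to 85.9 CPM with low frass.

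The glucose-6-phosphatase gene g6pc1a.1, which releases glucose from gluconeogenesis, had 0, 4, 1 and 0 counts in the control and 8, 17, 13 and 13 with low frass, without overlap. It is on the study's list, chosen on these libraries. The other gluconeogenic enzymes were not under 0.05. fbp1a was at 26.7 to 60.2 CPM in the control and 48.4 to 63.0 CPM with low frass, and pck2 at 402 to 1643 CPM against 819 to 3035 CPM. The list median over 13 members was 0.68, and 0.25 with stretch as a term. Leaving out 1 library gave 0.30 without control library 1 to 1.13 without control library 2, and with stretch 0.14 without control library 1 to 0.39 without low-frass library 3.

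Transcripts typical of liver were also higher in part of these libraries. Of 18 tested hepatocyte markers, 16 had a positive log2 fold change, with a median of 1.68 (1.42 with stretch), and 1 was under 0.05 in each fit, itih3a.2 (all features: 0.413%, and 0.798% with stretch). itih3a.2 is on the study's list, chosen on these libraries. The count was 0 without low-frass library 2 or control library 1, 3 or 4. It was 6 without low-frass library 4 (all features: 65 higher and 64 lower of 10671). Their summed level was 58.9, 144, 55.3 and 50.4 CPM in control libraries 1 to 4 and 119, 261, 134 and 57.8 CPM in low-frass libraries 1 to 4. That gene, which encodes an inter-alpha-trypsin inhibitor heavy chain, was at 0.597, 1.25, 0.263 and 0.707 CPM in control libraries 1 to 4 and 2.88, 7.64, 4.77 and 0.766 CPM in low-frass libraries 1 to 4. The hemopexin gene hpxa was at 0.517, 99.4, 39.1 and 0.348 CPM in low-frass libraries 1 to 4, against 0.283 to 13.6 CPM in the control and 163235 CPM on average in control liver. Low-frass libraries 2 and 3 were likewise the highest for hpda (tyrosine breakdown), c9 (complement), ahsg2 (fetuin) and the cystatin-like LOC108267382. The last, also on the study's list, had 1, 40, 24 and 0 counts in low-frass libraries 1 to 4 and 2 in the control libraries together. hgd and g6pc1a.1 averaged 2319 and 1364 CPM in control liver. In low-frass library 1, hgd was at its highest while hpxa was at 0.517 CPM and itih3a.2 at 2.88 CPM. The level of g6pc1a.1 was highest in low-frass library 2 (1.17 CPM), as were those of hpxa and itih3a.2. The part of the hepatocyte transcripts in the differences of hgd and g6pc1a.1 was not tested.

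**Figure D4:**
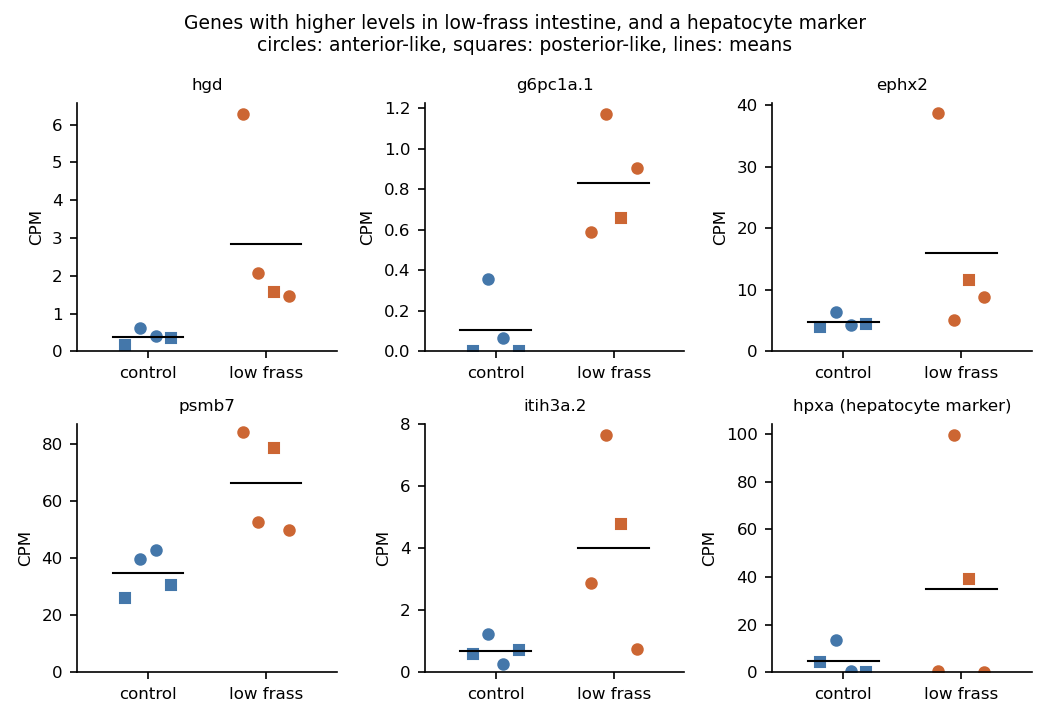
Levels in CPM of 5 genes and of hpxa, a hepatocyte marker, in the 4 control (blue) and 4 low-frass (orange) intestine libraries, circles for anterior-like and squares for posterior-like libraries, lines for the means. The highest low-frass point of hgd is library 1 (6.28 CPM), while g6pc1a.1, itih3a.2 and hpxa are highest in library 2 (1.17, 7.64 and 99.4 CPM).

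Most lipid genes were higher with diet alone, and the direction of their list turned with the handling of gut stretch. The gene ephx2, which encodes soluble epoxide hydrolase, was at 4.02, 6.34, 4.21 and 4.45 CPM in control libraries 1 to 4 and at 38.7, 5.1, 11.7 and 8.78 CPM in low-frass libraries 1 to 4. Low-frass library 2 was within the control range and library 1 stood far above the others. The log2 fold change was 1.76 (SE 0.52), and ephx2 averaged 73.3 CPM in control liver. The list of lipid uptake and lipoprotein assembly had 16 of 18 members positive with diet alone (median 0.58) and 12 of 18 with stretch (median 0.14). With the score of gut position 8 of 18 were positive (median -0.05), and with stretch but without low-frass library 1 the count was 9 of 18 (median 0.0047). The lipid list was not cleared of genes that also make up the score, so its values with the score may be partly built in. The lipid-droplet gene plin2 had a log2 fold change of 0.57 (SE 0.31) without and 0.69 (SE 0.30) with stretch. The apolipoprotein gene zgc:162608 had 5, 5, 3 and 1 counts in the control and 18, 17, 21 and 6 with low frass. It averaged 747 CPM in control liver, and the part of liver transcripts in its difference was not tested. Both ephx2 and zgc:162608 are on the study's list, chosen on these libraries.

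Outside the study's list, 8 genes with an unadjusted p under 0.05 in both edgeR fits and a mean of at least 1 CPM in a group were higher without overlap. The proteasome subunit gene psmb7 was at 26.0, 39.7, 42.7 and 30.8 CPM in control libraries 1 to 4 and 84.3, 52.6, 78.6 and 49.9 CPM in low-frass libraries 1 to 4, with a log2 fold change of 0.93 (SE 0.32, adjusted p = 1.0 in edgeR). The mitochondrial import gene timm44 lay at 23.2 to 29.3 CPM in the control and 31.3 to 56.8 CPM with low frass, and the chaperone genes fkbp8 and dnajc18 had log2 fold changes of 0.30 (SE 0.13) and 0.84 (SE 0.33). The mitochondrial quality gene spata18 was at 0.434 to 0.983 CPM against 1.18 to 1.79 CPM. tjp1a, the tight-junction gene ZO-1, was at 0.893 to 1.34 CPM against 1.53 to 2.07 CPM in the transcript tested, which is 1 of 12 transcripts. The loci LOC108258791 and LOC108261346 had log2 fold changes of 0.43 and 0.86.

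Sensors and growth factors gave a mixed picture. The flagellin receptor gene tlr-5 had 3, 5, 0 and 1 counts in the control and 8, 14, 12 and 11 with low frass, without overlap, and its list of innate sensors and effectors had 18 of 24 members lower, with a median of -0.42 and -0.27 with stretch. Without control library 1 the median was -0.13, with 13 of 24 lower. Without low-frass library 3 it was -0.63, but -0.05 with stretch. That setting without stretch had 7 lower members under 0.05, and 502 lower features of all 10647 tested. Within that list il17a/f1, a cytokine gene, was at 19.0, 1.70, 18.6 and 32.0 CPM in control libraries 1 to 4. It was at 3.18, 2.75, 19.7 and 2.79 CPM in low-frass libraries 1 to 4. Its unadjusted p was under 0.05 only with stretch, at a log2 fold change of -1.26 (SE 0.58). Among the anterior-like libraries, control library 2 lay below the low-frass ones. Control library 3, which also held posterior transcripts, lay above them. The peptidoglycan receptor gene pglyrp5 and the interferon gamma-related gene ifng1r had log2 fold changes of -0.39 (SE 0.21) and -2.12 (SE 1.22). The myostatin gene mstna, an inhibitor of muscle growth, had 3, 3, 3 and 1 counts in the control and 5, 12, 12 and 21 with low frass, and the reelin gene reln had 3, 1, 3 and 4 against 8, 53, 6 and 6. The groups of both did not overlap, with low-frass library 2 supplying most of the reelin counts. For the ribosomal gene rpl13a, 1 of its 2 transcripts had 1 count in the control libraries together and 3, 3, 6 and 5 with low frass. These counts do not give the level of the gene, since reads shared by its transcripts were not assigned. Of the genes in this paragraph, tlr-5, mstna, reln and rpl13a are on the study's list, chosen on these libraries.

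Digestive and anterior genes were higher with diet alone and near the control once stretch was in the fit. The anterior gut list had 12 of 12 members positive, with a median of 0.79, and 8 of 12 with stretch, with a median of 0.14. Peptide digestion and transport had 11 of 11 members positive with a median of 0.69, and 9 of 11 with a median of 0.10 with stretch. With the score of gut position both medians were negative, at -0.11 and -0.083. The score is built from the anterior gut list itself, so the fall of that list's median was largely built in. The peptide list was not cleared of genes that also make up the score, so the fall of its median may be partly built in as well. The transporter slc15a1b of the peptide list was at 42123 CPM in low-frass library 1, against 4234 to 7464 CPM in the other anterior-like libraries of the 8. For the posterior list the medians were -0.47 and -0.18, and with diet alone -2.43 without low-frass library 3 and 0.0043 without control library 4. In that list of 10 members, with stretch, slc10a2 and amn were under 0.05, both lower (all features: 1.10%). The anterior-like control library 3 held slc10a2 at 788 CPM. The lysosomal genes ctsla and neu1 of that list had log2 fold changes of 0.53 (SE 0.37) and -0.77 (SE 0.93). In the mucus and barrier list, agr2 and cldnf were at -0.05 (SE 0.56) and -0.25 (SE 0.60).

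**Figure D5:**
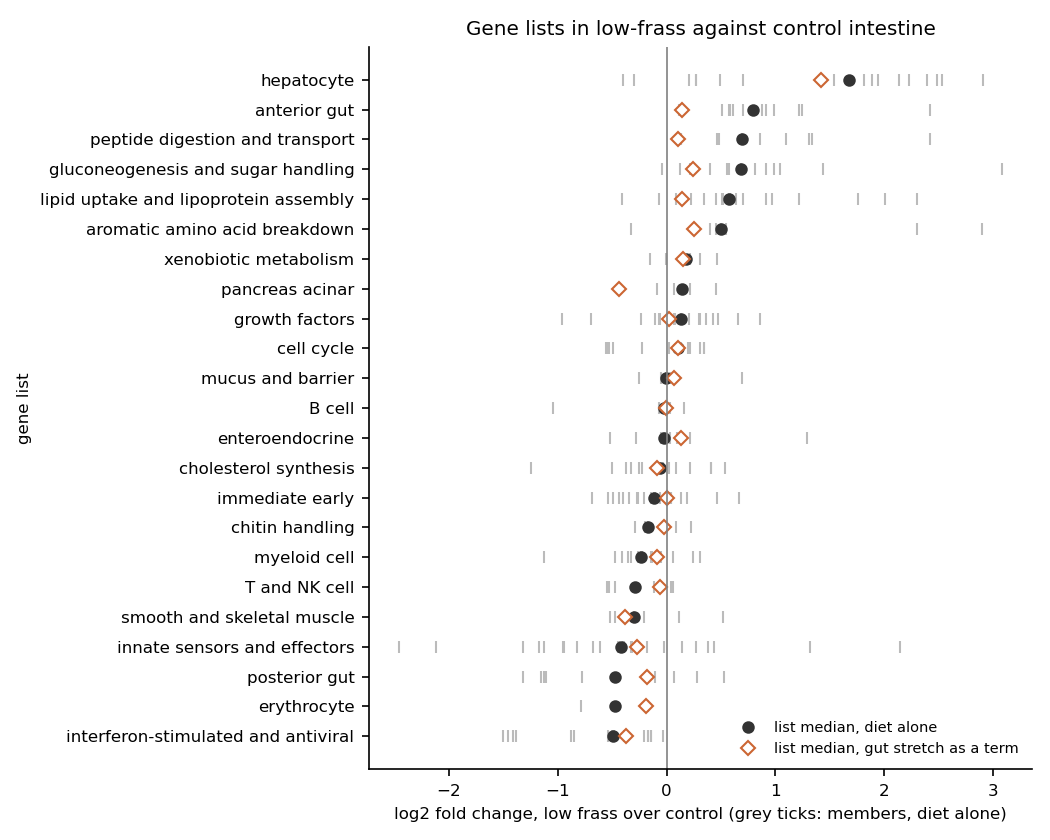
Log2 fold change of low-frass over control intestine by gene list, grey ticks for members and circles for list medians with diet alone, diamonds for medians with gut stretch as a term. The anterior gut median moves from 0.79 to 0.14, and the interferon median from -0.49 to -0.37.

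Lists for chitin handling, cholesterol synthesis, xenobiotic metabolism, cell cycle, growth factors, enteroendocrine cells, B cells, T and NK cells, myeloid cells, muscle, erythrocytes and pancreas held 0 tested members under an unadjusted p of 0.05 in either edgeR fit. The 5 tested chitin genes, of interest because frass holds insect exoskeleton, had a median of -0.17 (-0.02 with stretch) and summed levels of 2062 to 3212 CPM in the control and 2353 to 2615 CPM with low frass. Among immediate early genes myca and klf6a had log2 fold changes of -0.53 (SE 0.27) and -0.34 (SE 0.23), and nr4a2b was under 0.05 only with stretch, at 1.03 (SE 0.42).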

How the data were processed

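Poly(A)-selected RNA libraries were trimmed with Trimmomatic 0.38, aligned to Coco_2.0 with STAR 2.7.8a and counted with HTSeq 0.9.0 by the authors, who deposited raw counts per transcript feature without regard to strand and without normalization. Reads in exons shared by transcripts of a gene were not assigned, so genes with many transcripts hold few counts, and overlapping antisense genes cannot be told apart. Of 63022 features, 63009 were matched by accession or symbol to RefSeq's Coco_2.0 gene table. Features were tested in R 4.3.3 with edgeR 4.0.16 (quasi-likelihood F test, TMM scaling, default abundance filter with a minimum count of 10) over the 12 intestine libraries with the 3 diets as groups, and again with gut stretch as a term. The Benjamini-Hochberg adjustment ran over all 10401 features. Features of the study's list outside the filter were added back for their values only and have no adjusted p. A standard error (SE) is the fitted log2 fold change over the square root of F. DESeq2 1.42.0 was an alternative. The test was run on simulated counts with a smaller spread between libraries than these data and no difference in gut stretch. That run cannot show how well the test finds changes here. Per-library levels are TMM-scaled CPM, and differences within a stretch are of log2(CPM + 0.5).

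The members and gene lists were chosen with earlier results of these data known. Named features were the 29 of the study's list, those under an unadjusted p of 0.05 in both fits without overlap (up to 10 a direction, mean CPM of at least 1 in a group), and the 3 members of smallest p in each gene list. The last were named only for lists with a member under 0.05 in either fit, and all such members were named, both choices made after their values were seen. Further genes were named for gut position or cell type. Gene lists were matched by symbol only. The authors' fold changes and p-values, the liver comparisons and the high-frass comparison were not used here, and no sequences were printed.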

Additional observations from a re-analysis of the deposited data

Results flagged for a closer look

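Within each group of 4 libraries, each named gene and each list sum was examined for a library far from the other 3, with a gap beyond Dixon's critical value on the log2 scale. Chance flags about 1 in 20 groups.

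Low-frass library 3, the posterior-like one, stood apart most often. It was high for slc10a2 (1453 CPM, next 12.12 CPM), amn (420.4 CPM, next 3.167 CPM), neu1 (258.9 CPM, next 36.08 CPM) and il17a/f1 (19.74 CPM, next 3.177 CPM), and for the summed cell cycle list (1608 CPM, next 293.4 CPM). It was low for the summed lists of lipid uptake (1461 CPM), aromatic amino acid breakdown (353.9 CPM), B cells (354.5 CPM) and growth factors (204.4 CPM). The other 3 low-frass libraries were anterior-like. It also held 0.203 CPM of LOC108261596 and 0.05075 CPM of LOC108270652, where the other 3 low-frass libraries were at 0.

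Control library 2 was low for slc10a2 (18.76 CPM, next 787.8 CPM) and myca (22.87 CPM, next 36.52 CPM). It was high for dhx58 (58.24 CPM, next 48.86 CPM), the hepatocyte list (144.2 CPM, next 58.88 CPM) and the pancreas acinar list (5186 CPM, next 28.64 CPM).

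Low-frass library 1 was high for timm44 (56.81 CPM, next 33.28 CPM) and low for kynu (63.61 CPM, next 85.14 CPM). Control library 3 held the only control count of the rpl13a transcript (0.06585 CPM).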

How the results depend on the processing

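In edgeR 0 features were called under every setting without stretch. The exceptions to 0 calls were DESeq2 on the 8 libraries, with 3 features and 7 with stretch, and edgeR without a filter on low counts and with stretch, with 115 features, of which 96 passed the filter of the main test and 23 were among the 64 named features. The DESeq2 calls with stretch added rsad2, aste1a, LOC108258366 and LOC108274873, whose 13 counts all lay in low-frass library 3. Features under an unadjusted p of 0.05 numbered 461 without the filter (736 with stretch), 70 with at least 10 counts in each compared library (123 with stretch) and 200 with DESeq2. Leaving out 1 library gave 88 to 636 features, and 164 to 579 with stretch. The interaction of diet and stretch, added after seeing the data, gave 0 features at an adjusted p under 0.05 in edgeR and 436 unadjusted.

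Whether replicate numbers pair the libraries could not be read from these levels. Deviations of same-numbered low-frass and control libraries from their diet means correlated at -0.50, 0.51, -0.53 and -0.36. Low-frass and control library 2 were both anterior-like, and every other pair joined an anterior-like with a posterior-like library. Pairing and gut stretch therefore cannot be told apart here. The replicate block gave 0 calls and 74 features under 0.05, and 158 with stretch.

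Over 20 settings, which leave out those that join stretch with another alternative, and 64 named features, 1218 of 1234 fold changes kept their direction and side of the threshold, 3 were newly called and 13 in 6 genes changed sign. sugct was at 0.043 with its transcripts added up. With the stretch score as a covariate, agr2 was at 0.088 and neu1 at 0.0030. Leaving out 1 library moved cldnf from -1.06 to 0.14, agr2 from -0.94 to 0.23, ctsla from -0.036 to 0.75, neu1 from -2.23 to 0.034 and fabp6 from -2.08 to 0.15. The cause was not tested. The hepatocyte median was 0.38 with at least 10 counts in each library, where 6 of its genes were tested, and 2.45 without control library 2.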

Other observations

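Posterior Hox genes gave a second reading of gut position in the 8 compared libraries. hoxa10b had 1412 and 1054 counts in control libraries 1 and 4 and 1157 in low-frass library 3, and 3 to 12 counts in the anterior-like libraries other than control library 3, which held 143. hoxa9b and hoxc11a had 98 and 59 counts in control library 3 and at most 6 in the other anterior-like libraries. Control library 3 therefore lay between the classes for these genes, as it did for slc10a2.

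Transcripts found in pancreas differed between libraries of the same diet. The trypsin gene prss1 was at 1933 and 987 CPM in low-frass libraries 1 and 2 and 3112 CPM in control library 2, and at 5.89 to 41.9 CPM in the other 5. The somatostatin genes sst1.1 and sst2 had 916 and 969 counts in low-frass library 1, 57 and 35 in control library 2 and at most 6 in any other of the 8. The islet and duodenal factor gene pdx1 had 78 counts in low-frass library 1 and 1 to 11 in the others. The tissue of origin of the somatostatin and pdx1 counts was not tested. Low-frass library 1 also had the highest hgd, ephx2 and slc15a1b levels of the 8, and the part of pancreatic tissue in these was not tested.

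The replication gene mcm2 was at 7.61, 7.78 and 35.8 CPM in low-frass libraries 1, 2 and 4 and at 18.0 and 107 CPM in the anterior-like control libraries 2 and 3, while the posterior-like libraries of these diets were at 119 to 220 CPM.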
